A study of Homo sapiens with 6 samples.

Results

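The transcripts described here are the 302 rows of the deposited human table, of 18625 in all, whose gene name is the name of a sequencing clone (2 letters from AC, AL, AP or AF, 6 digits, a point and a number) and whose mean normalized read count over the 6 libraries was at least 150. The table held 3060 clone-named rows in all. The cells were NB4, a cell line from acute promyelocytic leukemia, in which the PML-RARA fusion blocks maturation at the promyelocyte stage. They were kept for 3 days either in DMSO, the solvent, or in 10 μM Tan I (tanshinone I, a lipid-soluble compound of the herb Salvia miltiorrhiza), with 3 libraries in each group. All 6 libraries came from this 1 line and no other allele or agent is labelled. Nothing states that the libraries of a group came from separate cultures, so the p-values below measure the spread between these libraries, which may be technical. The comparison asked which clone-named transcripts differed between Tan I and DMSO, and whether this went by annotated gene type.

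A clone name is given to a locus that has a transcript model but no approved gene symbol. Many such loci are long noncoding RNAs (lncRNAs), transcripts that are not translated into a known protein, often from the strand opposite a coding gene or from a shared start. Others are pseudogenes: a processed pseudogene is an intronless copy of an mRNA that was reverse transcribed into the genome, and an unprocessed pseudogene is a duplicated gene that lost its reading frame. Ribosomal protein mRNAs, being abundant, have left many processed copies. Several lncRNAs are host transcripts from which microRNAs are cut, among them the hosts of miR-223 and miR-142, which are known for their high levels in blood cells.

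By identifier, 293 of the 302 members were found in GENCODE release 44, where 95 had received a name of their own, 198 carried only their identifier, and none kept the clone name. There were 188 lncRNAs, 38 processed pseudogenes, 25 transcribed unprocessed pseudogenes, 23 loci of the class TEC (single-exon models that still await experimental checking), 8 protein-coding genes, 7 transcribed processed pseudogenes and 4 unprocessed pseudogenes, and 9 were no longer listed. The members were chosen by their mean count over all 6 libraries, so levels are described and not tested, and the treatment was not part of the rule. All 302 were in the fit across genes.

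The sequences below identify the members described in most detail. The first pair opens the transcripts of the members with the largest rises, AL390719.1 (ENSG00000217801; the whole of its first exon) and AL096865.1 (ENSG00000271857), read from hg38 at chr1:1063079-1063201 on the plus strand and chr6:45421856-45422005 on the minus strand.
AL390719.1: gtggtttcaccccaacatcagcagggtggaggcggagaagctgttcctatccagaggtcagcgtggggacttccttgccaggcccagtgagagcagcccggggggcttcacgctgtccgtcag
AL096865.1: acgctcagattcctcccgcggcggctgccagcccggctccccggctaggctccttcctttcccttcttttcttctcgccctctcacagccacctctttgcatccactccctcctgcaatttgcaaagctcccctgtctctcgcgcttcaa
The next set shows how closely ribosomal protein pseudogenes match their coding genes. Capitals mark the bases at which a member and its coding match differ. The stretches are bases 321 to 411 of AC243919.1 beside bases 354 to 444 of RPL9, and bases 21 to 111 of AC018738.1 beside bases 56 to 146 of RPS28, all counted along the canonical transcripts of GENCODE release 44 and all within the coding part of the match.
AC243919.1: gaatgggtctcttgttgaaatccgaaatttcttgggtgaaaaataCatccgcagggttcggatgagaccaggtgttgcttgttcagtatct
RPL9: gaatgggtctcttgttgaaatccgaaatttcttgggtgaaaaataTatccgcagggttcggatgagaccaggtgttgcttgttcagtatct
AC018738.1: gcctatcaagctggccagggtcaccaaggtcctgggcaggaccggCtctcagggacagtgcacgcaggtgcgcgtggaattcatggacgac
RPS28: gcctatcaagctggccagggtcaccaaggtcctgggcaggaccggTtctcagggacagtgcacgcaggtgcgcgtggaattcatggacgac
The last set shows which mature microRNAs 3 members carry, though no count below measures them, from RefSeq on GRCh38.p14, with the seed (bases 2 to 8) in capitals.
miR-223-3p: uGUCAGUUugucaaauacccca
miR-142-5p: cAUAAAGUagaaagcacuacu
miR-142-3p: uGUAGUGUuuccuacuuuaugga
miR-23a-3p: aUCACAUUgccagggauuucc
miR-27a-3p: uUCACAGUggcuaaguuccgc
miR-24-3p: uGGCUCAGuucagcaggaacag
No 2 of these 6 have the same seed.

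The libraries held 21502760 to 31679138 reads on the listed genes, and members took 0.427% to 0.571% of them. DMSO replicate 2 and Tan I replicate 3 stood apart from the other libraries: the first principal component held 70.8% of the variance over all genes tested, and its scores were 41.1 and 71.6 in this pair, 8.65 in Tan I replicate 2 and between −48.0 and −26.7 in the other 3. The share of reads on mitochondrial genes was 6.40% and 5.41% in this pair and 3.99% to 4.67% in the others. Of the promyelocyte markers 5 of 6 were in the table (MPO, PRTN3, AZU1, CTSG and CD33), with summed normalized counts of 70959 to 76923 in DMSO and 41825 to 50123 in Tan I, so the labelled cell type carried these markers. Of the markers of other cells, 3 of 4 for T cells were in the table, summing to 320 to 479 in DMSO and 354 to 620 in Tan I. The 2 of 4 epithelial markers summed to 223 to 375 and 276 to 435, the 2 of 3 B cell markers to 170 to 179 and 159 to 172, and COL1A1, alone of 3 for fibroblasts, lay at 74.2 to 120 and 65.5 to 112. No erythroid marker was among the rows. Their part in the results below was not tested, and in bulk RNA fewer cells of a type and less RNA per cell cannot be told apart.

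Few clone-named transcripts passed the threshold given below between Tan I and DMSO, and the same was true of all genes tested. For most of the rest the intervals, given further below, were too wide to show that they did not differ. AL390719.1, AL096865.1, AC109326.1, AL365181.2 and AC132872.1 were higher in Tan I and AC244502.1 was lower, by log2 fold changes of 0.32 to 0.83 and −0.53. These 6 passed the unadjusted threshold in limma, which asked for both p at or under 0.05 and a log2 fold change of 0.25 or more in size. The 5 higher members were 1.66% of the 302, against 1.32% of the 16887 genes tested, and the 1 lower member was 0.331%, against 1.10%. No member had an adjusted p of at most 0.05 in limma (Benjamini-Hochberg), against 0.00% of all genes, and in edgeR the count was also 0. In 12 members all Tan I values lay above all DMSO values, 3.97% of the 302 against 3.92% of the genes tested, and in 4 all lay below, 1.32% against 3.97%. The median log2 fold change of the members was 0.02, beside −0.0016 over all genes tested. Log2 fold changes were above 0 in 161 of the 302, against 8393 of the 16887 genes tested.

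**Figure D1:**
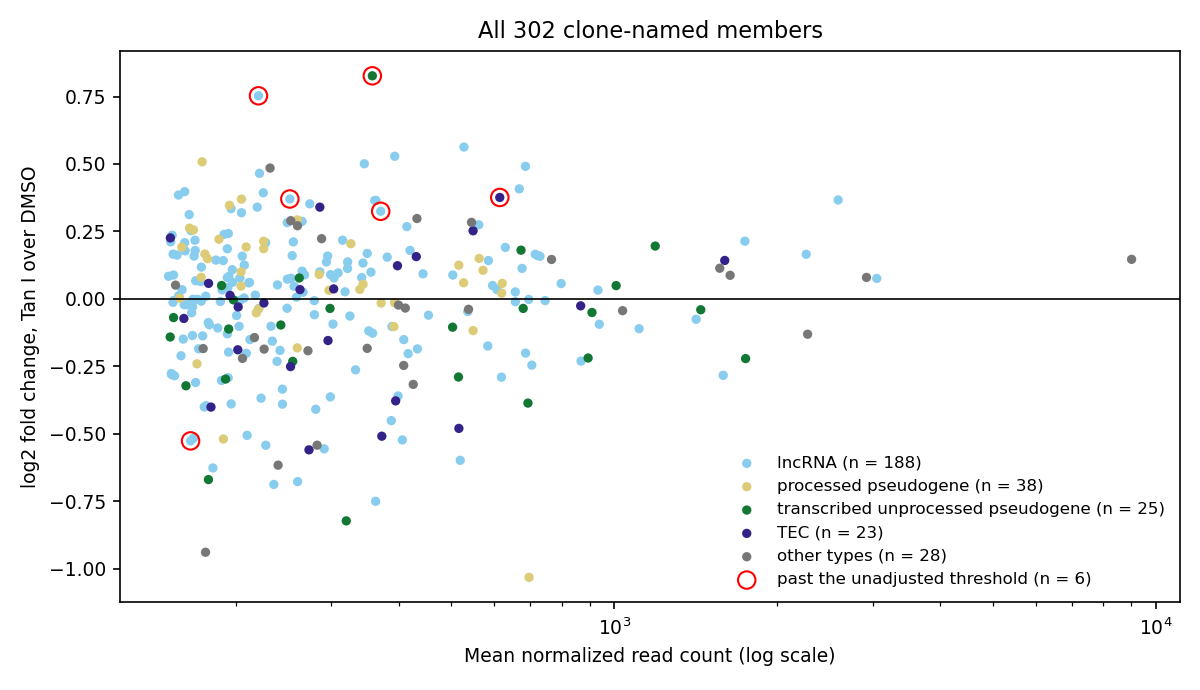
Log2 fold change (Tan I over DMSO, vertical axis) against the mean normalized read count on a log axis, 1 point per member, coloured by gene type; red rings mark the 6 past the unadjusted threshold. The members spread on both sides of 0, from −1.03 to 0.83, and the ringed members are not those with the highest counts.

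AL390719.1 rose in Tan I. This transcribed unprocessed pseudogene on chromosome 1 (1063079 to 1069355, plus strand, 10 exons) had 236, 269 and 268 normalized counts in DMSO and 455, 476 and 440 in Tan I. The 3 values of each group lay close together and the groups were far apart. Its log2 fold change was 0.83 ± 0.13 (SE, n = 3 per group; 95% interval 0.52 to 1.13) and its adjusted p in limma was 0.999. DESeq2 on the recovered reads gave it an adjusted p of 1.97e-05, and over all alternatives, edgeR included, the adjusted p ran from there to 1. It passed the unadjusted threshold in all 19 fits. The exact permutation p was 0.1, the smallest that 3 against 3 can give.

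The transcript of AL390719.1 had no nucleotide match to a coding transcript, but a translated search found PTPN11 and PTPN6, the phosphatases SHP2 and SHP1 of growth factor and cytokine signalling. With PTPN11, 70.5% of 44 codons at the start of the transcript and 46.3% of 121 codons further on gave the same amino acid. Neither gene passed the threshold. PTPN11 had 4543, 3986 and 4384 normalized counts in DMSO and 4512, 3594 and 3334 in Tan I (log2 fold change −0.18, 95% interval −0.52 to 0.15), and PTPN6 had 2014, 3178 and 2171 against 2502, 2898 and 3587 (0.30, −0.19 to 0.79). The start of AL390719.1 overlaps that of AL645608.8 (1062208 to 1063288), a lncRNA on the other strand at lower counts, which had 56.9, 44.3 and 68.0 in DMSO and 114, 86.4 and 73.3 in Tan I and also rose (log2 fold change 0.68 ± 0.26, 95% interval 0.07 to 1.30). The coding genes within 60000 bases did not pass: ISG15, an interferon-induced ubiquitin-like protein, had a log2 fold change of 0.40 (95% interval −0.28 to 1.08), AGRN, the matrix protein agrin, −0.05, and C1orf159 0.07. The strand setting of the counting is not given in the sources used here, so reads in the stretch shared by AL390719.1 and AL645608.8 cannot be told apart.

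AL096865.1 rose with a wider spread. This single-exon lncRNA (chromosome 6, 45421079 to 45422005, minus strand) lies whole in intron 2 of 8 of RUNX2, on the opposite strand, and RUNX2 is a runt-family transcription factor known from bone formation. It had 149, 198 and 141 normalized counts in DMSO and 207, 343 and 283 in Tan I. The groups did not overlap, but the highest DMSO library, replicate 2, lay close to the lowest Tan I library, replicate 1. The log2 fold change was 0.75 ± 0.23 (SE; 95% interval 0.21 to 1.30), its exact permutation p was 0.1, and the call was lost without DMSO replicate 3 (0.66) and without Tan I replicate 2 (0.59). RUNX2 itself had 3413, 3126 and 3241 normalized counts in DMSO and 3620, 3258 and 2742 in Tan I, and its log2 fold change was −0.03. For SUPT3H, the other neighbour, a subunit of a histone acetyltransferase complex, it was 0.08. With the strand setting not given, reads of AL096865.1 cannot be told apart from RUNX2 reads of the same intron.

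The other 4 called members changed less, and their calls held in fewer fits: AC244502.1 was called in 14 of 19, AL365181.2 in 12, AC109326.1 in 10 and AC132872.1 in 8. AC109326.1, a TEC locus on chromosome 17 (43360033 to 43361361), had 562, 448 and 597 normalized counts in DMSO and 607, 735 and 737 in Tan I (log2 fold change 0.38 ± 0.16, 95% interval 0.01 to 0.74). AL365181.2, now BCAN-AS1, is a lncRNA that starts beside BCAN, the gene of the brain matrix protein brevican. It had 214, 225 and 216 in DMSO and 287, 316 and 249 in Tan I (0.37 ± 0.15, 95% interval 0.02 to 0.72). BCAN itself was at 10.3 to 18.0 counts in DMSO and 14.7 to 32.3 in Tan I. AC132872.1, a lncRNA near the casein kinase gene CSNK1D, had 314, 316 and 355 in DMSO and 369, 452 and 415 in Tan I (0.32 ± 0.14, 95% interval 0.0004 to 0.65). Of the coding genes within 60000 bases, SLC16A3 had a log2 fold change of 0.32 (95% interval −0.05 to 0.70) and CSNK1D 0.03, and neither passed. In these 3 members, AC109326.1, AL365181.2 and AC132872.1, the groups did not overlap, by margins smaller than the spread of the Tan I values. Each had an exact permutation p of 0.1 and an adjusted p of 0.999 in limma.

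AC244502.1, now TRD-AS1, was the 1 called member that was lower in Tan I. It is antisense within the T cell receptor delta locus on chromosome 14 (22197446 to 22484462), and had 208, 215 and 161 normalized counts in DMSO and 120, 165 and 120 in Tan I. The groups overlapped, since Tan I replicate 2 lay above DMSO replicate 3. The log2 fold change was −0.53 ± 0.21 (95% interval −1.01 to −0.05), and the exact permutation p was 0.2. TRDC, the constant segment of the receptor delta chain on the other strand, had 60.6, 131 and 64.1 in DMSO and 103, 116 and 205 in Tan I, a log2 fold change of 0.75 with a 95% interval of −0.14 to 1.64. Of the T cell markers, CD3D, CD3E and CD2, none passed the threshold and all had higher values in Tan I (log2 fold changes of 0.23 to 0.37).

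**Figure D2:**
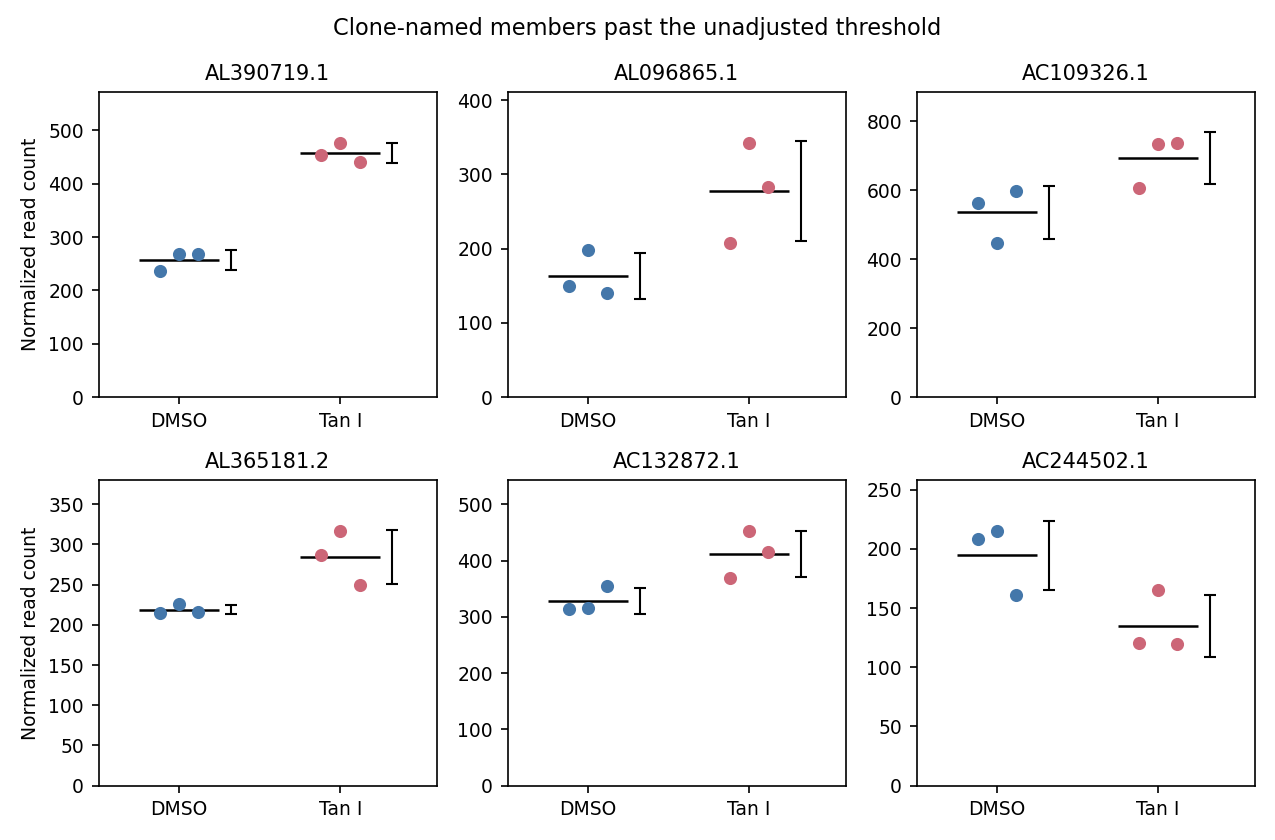
Normalized read count (vertical axis, from 0) of the 6 called members in each DMSO and Tan I library; points are libraries, horizontal lines the group means and side bars ± 1 SD (n = 3). AL390719.1 shows 2 tight groups far apart, while AC244502.1 (TRD-AS1) overlaps between the groups.

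Larger fold changes than some of these were seen in members that did not pass. AL035071.1, a lncRNA near EFCAB8, had 369, 432 and 435 normalized counts in DMSO and 368, 804 and 757 in Tan I (log2 fold change 0.56 ± 0.29), so Tan I replicate 1 lay with the DMSO libraries. AL022311.1, whose exons share bases with the translation factor gene EIF3L, had 374, 220 and 383 against 469, 536 and 376 (0.53 ± 0.25), and AL031727.1, a processed copy of RPS14 within an intron of MICOS10, 146, 125 and 151 against 142, 235 and 240 (0.51 ± 0.24). The 5 lowest fold changes belonged to AC073349.2 (−1.03), AL691432.1 (−0.94), AC138932.1 (−0.82), AC026471.1 (−0.75) and AL161725.1 (−0.69), with standard errors of 0.77 to 1.06, and none passed. All 5 were lowest in Tan I replicate 3 and next lowest in DMSO replicate 2. None of the 33 coding genes that lie over or next to a named member, and could be tested, passed the unadjusted threshold. Over all genes tested the shares were 1.32% higher and 1.10% lower.

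By gene type, the calls were 3 higher and 1 lower among 188 lncRNAs, 1 higher among 25 transcribed unprocessed pseudogenes and 1 higher among 23 TEC loci, beside 1.32% higher and 1.10% lower over all genes tested. The 38 processed pseudogenes, 7 transcribed processed pseudogenes, 4 unprocessed pseudogenes, 8 protein-coding genes and 9 unlisted rows had no call. Median log2 fold changes were 0.03 for lncRNAs, 0.09 for processed pseudogenes, −0.10 for transcribed unprocessed pseudogenes, −0.02 for TEC loci and −0.04 for protein-coding members. Values were above 0 in 104 of the 188 lncRNAs, in 28 of the 38 processed pseudogenes and in 6 of the 25 transcribed unprocessed pseudogenes. Over all genes tested they were above 0 in 8393 of 16887. Among the processed pseudogenes this held for 21 of the 24 that match a ribosomal protein gene and for 7 of the other 14. The ribosomal protein coding genes were above 0 in 80 of 83. Library differences, described next, also entered these counts, and their part was not tested.

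The gene types moved in opposite directions between libraries of one group. Taking each member's deviation from its own mean on the log2 scale, the median for TEC loci was −0.41 in DMSO replicate 2 and −0.52 in Tan I replicate 3, and 0.13 to 0.28 in the other libraries. Transcribed unprocessed pseudogenes showed the same order, at −0.31 and −0.36 against 0.01 to 0.35, and lncRNAs a smaller one, at −0.17 and −0.13 against 0.06 to 0.11. Processed pseudogenes went the other way, at 0.16 in DMSO replicate 2 and 0.48 in Tan I replicate 3, and between −0.34 and 0.05 in the others. Over the other 9935 genes with a mean of at least 150, the medians stayed between −0.05 and 0.06. The counts had been divided by 1 size factor per library, which tends to hold the median over many genes near 0. These medians therefore cannot show that the shift was particular to the members. The first principal component given above, which set the same pair of libraries apart, was taken over all genes tested. The mitochondrial read share, given above, was highest in the same pair of libraries, and its part in this was not tested.

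**Figure D3:**
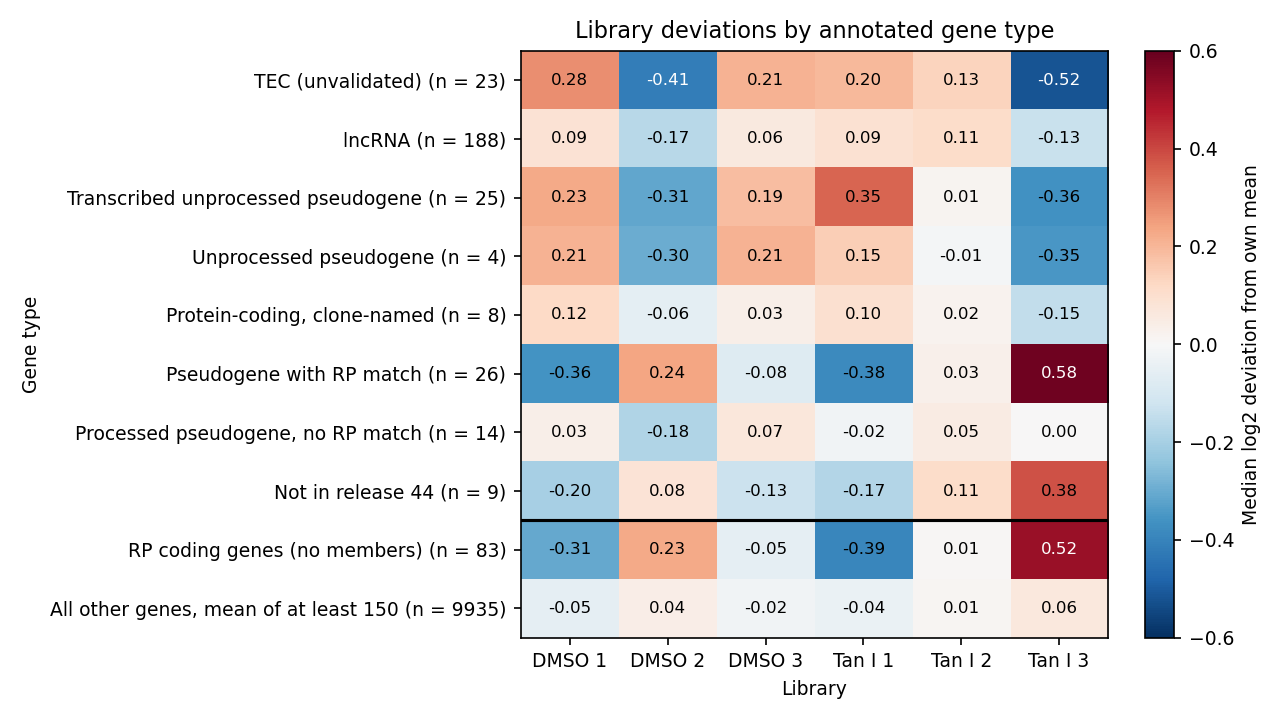
Median deviation from a gene's own mean (log2 scale, in colour and in digits) by library (columns) for the members by gene type (rows above the line; the 5 transcribed processed pseudogenes without a ribosomal protein (RP) match are left out) and for genes that are not members (below). TEC loci and unprocessed pseudogenes are lowest in DMSO 2 and Tan I 3, and pseudogenes with a ribosomal protein match are highest there, as are the ribosomal protein coding genes.

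The size of this dip varied with the position of the lncRNAs. The 80 that overlap a coding gene on the opposite strand had medians of −0.39 in DMSO replicate 2 and −0.31 in Tan I replicate 3, and 0.10 to 0.19 in the others. Since the strand setting of the counting is not given, their reads cannot be told apart from those of that coding gene where they overlap. The 45 that overlap no coding gene and start over 2000 bases from any coding start stayed between −0.08 and 0.06, and the 19 that start within 2000 bases of one ran from −0.14 to 0.14, with the highest values in Tan I replicates 2 and 3. The remaining 2 classes were also lowest in DMSO replicate 2 and Tan I replicate 3: the 20 within an intron or span of a coding gene on the same strand had −0.23 and −0.20 there and 0.07 to 0.16 in the others, and the 24 that share exon bases with one had −0.18 and −0.10 against 0.07 to 0.09. The 4 called lncRNAs were 1 of the 80, 2 of the 45 and 1 of the 19, beside the 1.32% higher and 1.10% lower of all genes tested, and these counts are too small to set the classes apart.

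Members were more variable than other genes at the same level. The SD within a group on the log2 scale, pooled over DMSO and Tan I, had a median of 0.34 over the members and 0.21 over the other genes with a mean of at least 150. For lncRNAs with a symbol of their own at such levels (236 genes) it was 0.24, and for clone-named rows with means from 10 to 150 it was 0.49. At matched levels the medians were 0.32 and 0.27 for means of 150 to 200, 0.38 and 0.24 for 200 to 300, 0.36 and 0.21 for 300 to 600, and 0.28 and 0.20 from 600 upwards, members first. The 95% interval of a member's log2 fold change had a median half-width of 0.56, and lay within ± 0.5 for 50 of the 302, so for most members a change of that size could not be told from none with these libraries.

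**Figure D4:**
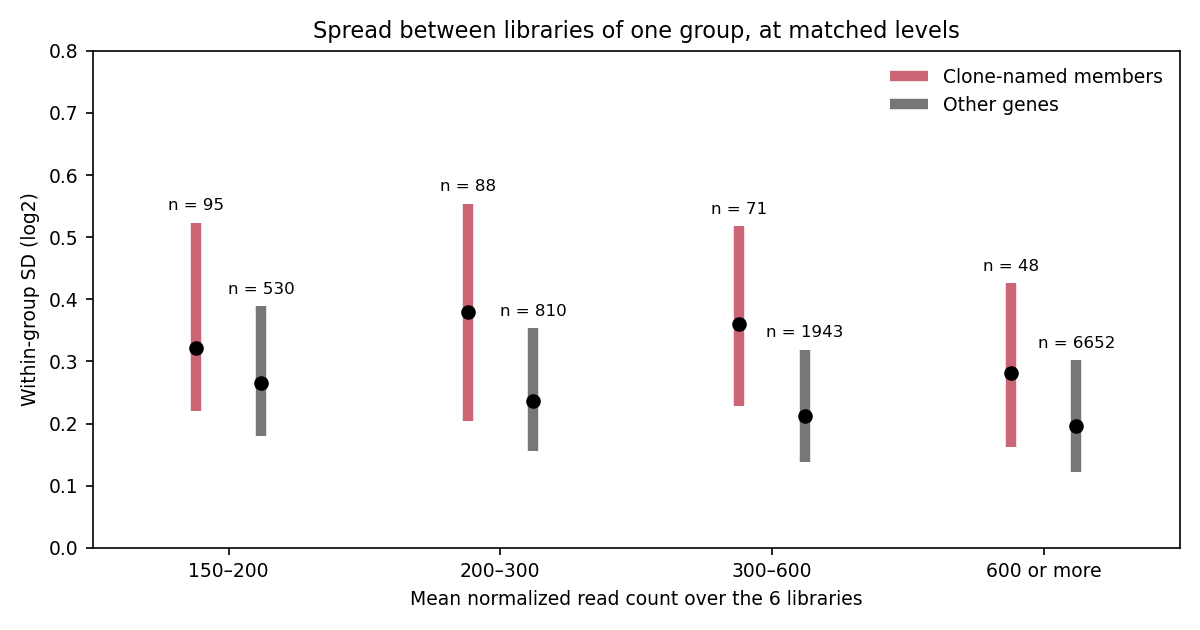
Within-group SD of log2 values (vertical axis) by class of mean normalized read count (horizontal axis) for clone-named members (red) and other genes (grey); dots are medians and bars run from the 25th to the 75th percentile. The members' median lies above that of other genes in each of the 4 classes.

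In 25 members this SD was above 1, and in all 25 the lowest library was DMSO replicate 2 or Tan I replicate 3. Of these, 13 were lncRNAs, and 12 of the 13 overlap a coding gene on the opposite strand, so the limit of the unknown strand setting applies to them. The widest was AC112907.3, a lncRNA that runs across the start of the translation initiation factor gene EIF4A2 from the opposite strand, with 467, 44.3 and 416 normalized counts in DMSO and 520, 202 and 34.7 in Tan I. EIF4A2 itself had 13061, 11658 and 13327 against 13548, 14582 and 12909, and only 63 of the 2400 exon bases of AC112907.3 lie on its exons. AL133230.1, opposite the phosphatase gene PTPN1, had 308, 38.5 and 222 against 348, 112 and 29.3, while PTPN1 had 1844, 1726 and 1843 against 1923, 1572 and 1690. The highest library stood 15.0-fold above the lowest for AC112907.3 and 11.9-fold for AL133230.1, while both coding genes kept within a far narrower range. EIF4A2 was also lowest in DMSO replicate 2 and next lowest in Tan I replicate 3.

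AL691432.1, a transcribed processed pseudogene in an intron of SLC35E2B on the opposite strand, had 351, 53.0 and 227 normalized counts in DMSO and 295, 112 and 17.3 in Tan I, a range of 20.2-fold. Its coding match was the ribosomal protein gene RPS7, at 85.06% identity. RPS7 was highest in Tan I replicate 3 (62002), where AL691432.1 was lowest. AC073349.2 is annotated as a processed pseudogene on chromosome 7 (64835280 to 64836882). Its translated match was ERVW-1, the retroviral envelope gene of syncytin-1 known from the placenta, with 52.2% of 67 codons alike. It had 1291, 280 and 889 against 1236, 403 and 74.7, and ERVW-1, at low counts, had 38.2, 2.89 and 14.8 against 24.4, 4.22 and 1.33. Both were highest in DMSO replicate 1 and lowest in Tan I replicate 3. AC138932.1, now PKD1P3, a copy of the polycystin gene PKD1 at 98.04% identity over 3529 bases, had 589, 158 and 392 against 519, 196 and 64.0, and PKD1 had 4157, 2248 and 3628 against 3822, 2595 and 1911. AC026471.1, which overlaps the start of ARMC5 on the opposite strand, had 646, 163 and 448 against 615, 234 and 68.0, while ARMC5 itself was highest in the libraries where the member was lowest, with 200, 347 and 205 against 192, 231 and 357. AL161725.1, now DOCK8-AS2, antisense to the immune cell guanine exchange factor DOCK8, had 423, 74.2 and 306 against 416, 156 and 34.7.

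**Figure D5:**
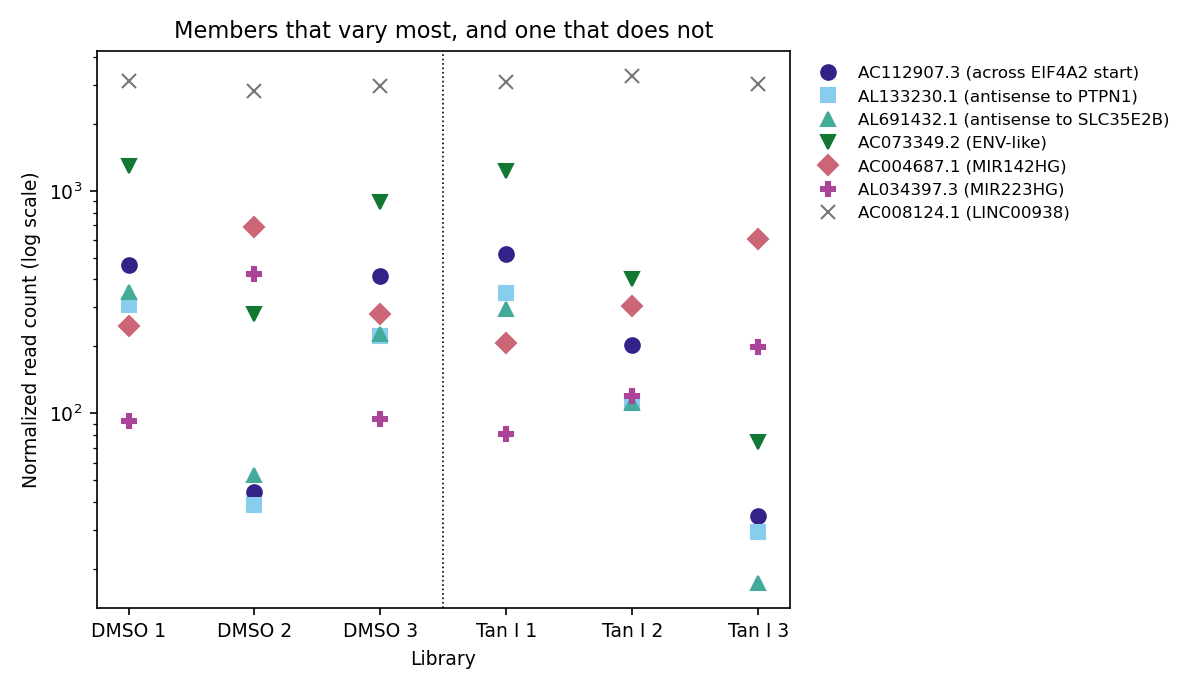
Normalized read count on a log axis in each library for 4 members that are low in DMSO 2 and Tan I 3, for 2 microRNA host transcripts that are high there, and for AC008124.1, which stayed within 2831 to 3289. The dotted line separates DMSO from Tan I; the shifts occur within both groups.

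The processed pseudogenes were mostly copies of ribosomal protein mRNAs. Of the 74 pseudogene members, 64 had a coding match in a nucleotide search, and 26 of these matched a ribosomal protein gene (21 different genes), 24 of them among the 38 processed pseudogenes. Identity ran from 85.1% to 100%, with a median of 98.1%. The 26 had a median deviation of 0.24 in DMSO replicate 2 and 0.58 in Tan I replicate 3, against −0.36 in DMSO replicate 1 and −0.38 in Tan I replicate 1, and 25 of the 26 were highest in Tan I replicate 3. The 83 ribosomal protein coding genes had medians of 0.23, 0.52, −0.31 and −0.39 in these 4 libraries. The 14 processed pseudogenes without a ribosomal match stayed between −0.18 and 0.07. None of the 26 was called, and their median log2 fold change was 0.15. Only AL691432.1 of the 26 was not highest in Tan I replicate 3, where it was lowest.

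AC243919.1, the copy of RPL9 shown above, had the highest mean of all members, and also the highest per length, at 15590 normalized counts per 1000 bases of transcript. It differs from RPL9 at 1 of 579 aligned bases. It had 6490, 11393 and 7288 normalized counts in DMSO and 5819, 8643 and 14527 in Tan I, and RPL9 had 60334, 94004 and 70677 against 55364, 74803 and 118302. The order of the libraries was the same for both, and the member's mean was 11.4% of its match. AC018738.1 (RPS28P4), 1 base from RPS28 over 210, had 273, 389 and 323 against 223, 346 and 479, which was 0.781% of RPS28. AC107983.1, a second copy of RPS28 with the same 91-base stretch as AC018738.1, had 195, 408 and 302 against 214, 365 and 472. AC116533.1 (RPL36AP37) was identical to the coding part of RPL36A over 321 bases and had 375, 712 and 510 against 418, 544 and 817, while RPL36A had 1466, 1128 and 1420 against 1398, 1494 and 1179. In DMSO replicate 2 and Tan I replicate 3 the copy had its highest values and RPL36A its lowest. RPL36A had a mean of 1347, while the median over the 83 ribosomal protein coding genes was 38878. Whether the RPL36A row holds most reads of that gene cannot be told, so this opposite order is uncertain. Per the methods, reads mapping to several places were removed, so for copies this close only reads that reach a differing base or the flank can be assigned, and their counts are uncertain.

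The hosts of 3 well known microRNAs or clusters are members, named here for what they carry and not by a rule. AL034397.3 (MIR223HG, chromosome X) spans the hairpin of miR-223, a microRNA of the granulocyte lineage. It had 92.3, 424 and 94.5 normalized counts in DMSO and 81.1, 120 and 199 in Tan I, a range of 5.22-fold with its highest value in DMSO replicate 2. AC004687.1 (MIR142HG, chromosome 17) spans miR-142, which is made in blood cells in general, and had 246, 687 and 279 against 206, 304 and 608. AC020916.1 (MIR23AHG, chromosome 19) spans miR-23a, miR-27a and miR-24-2, and had 283, 357 and 295 against 304, 394 and 532. Log2 fold changes were −0.31 (95% interval −1.75 to 1.13), −0.10 (−1.26 to 1.05) and 0.36 (−0.15 to 0.88), and none passed. For the first pair of hosts the intervals are wide enough to hold a doubling or a halving of the level. These counts measure the host transcript, not the mature microRNA.

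The remaining members with the highest means did not differ between treatments by the threshold. AC008124.1 (LINC00938), a lncRNA that starts beside the chromatin remodelling gene ARID2, had 3138, 2831 and 2953 normalized counts in DMSO and 3094, 3289 and 3017 in Tan I, a within-group SD of 0.07. AC073869.1 (SMPD4BP, a copy of the sphingomyelinase gene SMPD4) ran from 2256 to 3358 over the 6 libraries. AL355488.1 (SLC16A4-AS1) had 2412, 1877 and 2507 against 2781, 3376 and 2592, with groups apart and a log2 fold change of 0.37 (95% interval −0.01 to 0.74). SLC16A4, on the other strand, had 352, 46.2 and 222 against 335, 74.8 and 32.01. AC009533.1 (DDX12B, a copy of the helicase gene DDX11) ran from 1570 to 2824, and AL390728.4 (ZNF731P) from 1006 to 2324. AC092747.4, within MED21, ran from 1925 to 2656, AC005261.1, near ZNF543, from 1569 to 2230, and AC022400.6, beside SEC24C, from 1438 to 1827. AC068831.7, a read-through of the cell division gene PRC1 and the vesicle gene VPS33B, had 2049, 902 and 1835 against 2125, 1903 and 1006.

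The narrowest members were AC005726.1, with 414, 422 and 412 normalized counts in DMSO and 402, 419 and 397 in Tan I, AC079781.5, with 197, 184 and 183 against 191, 192 and 177, and AC008124.1. Both of the first pair share exons with coding genes on the same strand, AC005726.1 with RSKR and SPAG5 and AC079781.5 with ASNS, the asparagine synthetase gene. RSKR and SPAG5 exons hold 48.5% and 46.95% of the exon bases of AC005726.1, and ASNS exons hold 63.4% of those of AC079781.5. Reads in shared bases cannot be told apart from those of the coding gene. The same holds for other members that share exon bases with one, such as AL022311.1 and AC068831.7. ASNS had 703, 401 and 699 against 641, 439 and 261. Both were highest in DMSO replicate 1 and lowest in Tan I replicate 3, over a much narrower range in AC079781.5. At the limit of the rule, the last members inside were AL353898.3 (mean 151), AC092821.1 (151) and AC005253.1 (150.2), and the first outside were AC006480.2 (just under 150), AC138969.1 (149.8) and AC105206.2 (149.1).

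Among the 8 protein-coding members, AC118549.1 is now ZZZ3, a subunit of a histone acetyltransferase complex, and AC091057.6 is ARHGAP11B, a human-specific gene known from neocortex development. ZZZ3 had 1205, 941 and 1004 normalized counts in DMSO and 1201, 999 and 865 in Tan I (log2 fold change −0.04), and ARHGAP11B had 255, 288 and 252 against 274, 340 and 317 (0.22). The widest of the 8, AC107871.1, shares exons with CALML4 and CLN6 and had 524, 149 and 428 against 534, 334 and 128.

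Other lncRNAs and the machinery that removes such transcripts were taken from lists of well known genes. Of 18 well characterised lncRNAs none passed the unadjusted threshold in either direction, and their median log2 fold change was 0.0042. KCNQ1OT1, the imprinted antisense RNA, had 3269, 696 and 2359 normalized counts in DMSO and 3601, 1656 and 837 in Tan I, and MALAT1, of nuclear speckles, had 10168, 3822 and 10156 against 10652, 9272 and 5469, both lowest in DMSO replicate 2. GAS5, which hosts small nucleolar RNAs, was highest in DMSO replicate 2 and Tan I replicate 3, with 24875, 32832 and 27868 against 23507, 30579 and 36970. None of 10 nonsense-mediated decay factors (median −0.03) and none of 18 nuclear exosome subunits and cofactors (median 0.08) passed either. Over all genes tested 1.32% passed as higher and 1.10% as lower, and at such shares lists this short can hold none. Of the 5 promyelocyte markers measured, 2 passed and were lower in Tan I: MPO, myeloperoxidase of the primary granules, had 60389, 64107 and 63267 against 33279, 39450 and 37076 (log2 fold change −0.78), and CTSG, cathepsin G, 1536, 2392 and 1801 against 839, 1263 and 1496 (−0.69).

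Other fits changed how many members were called. edgeR called 6 members, 1.99% against 2.42% of all genes tested, and DESeq2 called 8, 2.65% against 2.49%, by the unadjusted threshold. With the adjusted p, DESeq2 called 1 member, AL390719.1, against 0.107% of the genes that received one. The score on the first principal component came from the same values, members and both groups included, so calls that use it are not independent support. With this score as a covariate, 47 members passed the unadjusted threshold (36 higher, 11 lower), 15.6% against 8.86% of all genes. Past the adjusted threshold there were 5, 1.66% against 1.15%. These 5 were AL390719.1, AL358473.1, AL022311.1, AC110079.1 and AC018529.2, all higher in Tan I. AL358473.1, a lncRNA beside the kinesin gene KIF21B, had 667, 404 and 645 normalized counts in DMSO and 901, 902 and 593 in Tan I, and its log2 fold change was 0.49 (95% interval −0.09 to 1.07) in limma without the covariate and 0.64 with it. AC110079.1, a 138-base stretch with a match to GTF2I, had 1346, 644 and 1318 against 1718, 1396 and 716, and AC018529.2, opposite MBP, 244, 129 and 206 against 314, 255 and 165. Leaving out Tan I replicate 1 gave 35 members, 11.6% against 8.86% of all genes, and leaving out both DMSO replicate 2 and Tan I replicate 3 gave 8, 2.65% against 2.82%.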

How the data were processed

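RNA-seq of NB4 cells was analysed from the table of normalized counts. Per the paper's methods and the submitters' processing notes, the authors used STAR on GRCh38 for paired-end reads, dropped those that mapped to more than 1 place, made gene counts in featureCounts and ran DESeq2. Versions, annotation and strand setting are not given in the sources used here. The authors deposited a signal per gene and library: the read count divided by 1 size factor per library. In the 6 libraries 100% of values were whole multiples (tolerance 0.01) of 1 read, so reads were recovered. The deposited mean signal column is the authors' mean. Columns with the authors' log2 fold change, its standard error and test statistic (each a score), p-value and adjusted p-value were not used. The columns labelled con were taken as DMSO.

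Genes with a mean of at least 10 (16887) were tested with limma 3.58.1 (lmFit, eBayes with trend, R 4.3.3) on log2(normalized count + 1), which understates changes of low genes, with Benjamini-Hochberg adjustment. A call needed p at or under 0.05 and a log2 fold change of 0.25 or more in either direction. Single members also had an exact two-sided permutation test. Alternatives included edgeR 4.0.16 and DESeq2 1.42.0 on recovered reads. The tests were checked only on simulated data, without shared differences between libraries and with planted changes larger than those called here. The check therefore does not cover the conditions of these libraries. Gene types and positions came from GENCODE release 44 (99.6% of identifiers found), and coding matches from blastn 2.17.0 (e-value at most 1e-20) or tblastx (1e-05). Named members were those past the unadjusted threshold, the 10 with the highest mean, the 5 with the largest rise and the 5 with the largest fall, the 3 on each side of the minimum mean, and the 3 widest and 3 narrowest by within-group SD, with genes over or next to them. Other members were chosen after their values were seen. Members and lists were chosen with earlier results of these data known. Depth was 21502760 to 31679138 reads on the listed genes.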

Additional observations from a re-analysis of the deposited data

How the results depend on the processing

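Fits with a pseudocount of 0.1 or 10, with low values unfiltered or filtered at a mean of 50, with quantile normalization or equal totals, without the trend, with edgeR and with the replicate block gave 4 to 6 members past the unadjusted threshold. With the principal component covariate there were 47, and with members limited to a mean of at least 300 there were 3. Leaving out each library in turn gave 2 to 35. The count was 2 without DMSO replicate 1 and without Tan I replicate 2, 3 without DMSO replicate 3 and 35 without Tan I replicate 1, while over all genes tested it went from 408 to 180, 160, 201 and 1496 in the same fits. The count past the adjusted threshold was 1 in DESeq2, 5 with the covariate, 0 in every fit that left out 1 library, and 0 in the remaining fits. The cause of these changes was not tested. The median log2 fold change of the members ran from −0.06 to 0.08 over all fits, within 1 SD (0.126) of the library medians around its main value. With the replicate number as a block, 5 members were called. The deviations of libraries with the same number had correlations of 0.75, −0.09 and −0.45. Of all pairs of libraries, DMSO replicate 1 and Tan I replicate 1 were the most alike (chi-square per gene between their reads 5.89). The next were DMSO replicates 1 and 3 (9.64). Whether the numbers pair the libraries cannot be told from these values. The block moved the count of all genes called from 408 to 348. For single named members, 470 of 558 values under an alternative kept their direction and their side of the threshold, 34 fell below it, 19 passed it, and 35 of members not called changed sign. AL390719.1 passed in 19 of 19 fits and AL096865.1 in 17. The fit without both DMSO replicate 2 and Tan I replicate 3 was chosen after seeing the data. The parts of read depth and of the spread between libraries in the width of the intervals were not tested.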
